A study of Mus musculus with 30 samples.

Results

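The livers compared here came from mice on the MCD diet, a feed without methionine and choline that is used to model fatty liver disease with inflammation. Of the 30 livers measured by RNAseq in the series, 20 belonged to this comparison, 10 from mice injected with a monoclonal antibody against ACBP/DBI (MCD anti-DBI) and 10 from mice injected with a mouse IgG2a isotype control (MCD IgG). All were male C57BL/6 mice that were 8 weeks old, stayed on the diet for 6 weeks and received 2 injections per week in weeks 4 to 6, so that both groups carried the diet and differed by the antibody. The other 10 livers, 5 with IgG and 5 with anti-DBI on regular chow diet (RCD), were used only to test whether the response to the antibody differed between the diets. No group of this series received MCD with methionine and choline put back, and the antibody was given after 4 weeks of diet, so the comparison concerns livers in which the diet had already acted. Members were taken by the group labels alone, and every gene with enough counts was tested.

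ACBP, the product of the gene Dbi, binds acyl-CoA esters inside cells and is also released, when it acts on GABA type A receptors. Without choline the liver makes too little phosphatidylcholine to export triglyceride in VLDL particles, and without methionine it lacks a precursor of both S-adenosylmethionine and glutathione. Mice on MCD lose weight while their livers store fat, hepatocytes die, monocytes enter the tissue, and stellate cells lay down collagen.

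Total counts ran from 10.28 to 15.85 M per liver with IgG (1 M is 1e+06 counts) and from 11.12 to 21.67 M with anti-DBI, with medians of 12.93 and 17.99 M. The anti-DBI libraries were deeper (two-sided permutation test of the means, p = 0.0014), so the comparison was also made with every library thinned to the smallest total. The MCD anti-DBI livers 5 and 10 were nearly alike, with 8 of 9440 genes differing by more than 1.5-fold, against 151 of 9379 in the next closest pair. These livers were therefore also summed to 1 sample or left out. MCD IgG 3 lay farthest along component 1. Albumin (Alb), the most familiar hepatocyte transcript, was found at 60140 to 113100 CPM (counts per 1e+06, TMM-scaled) in MCD IgG and at 96960 to 149200 CPM in MCD anti-DBI. In bulk tissue, fewer cells of a type and less RNA per cell cannot be told apart, and this holds for every result below.

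The antibody groups separated along the main axis of variation. Component 1 held 39.7% of the variance, and the 10 MCD IgG livers lay between -54.12 and -3.385 on it, all below the 10 MCD anti-DBI livers at 18.38 to 45.87. Component 2, with 13.5%, spread the livers within both groups.

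**Figure D1:**
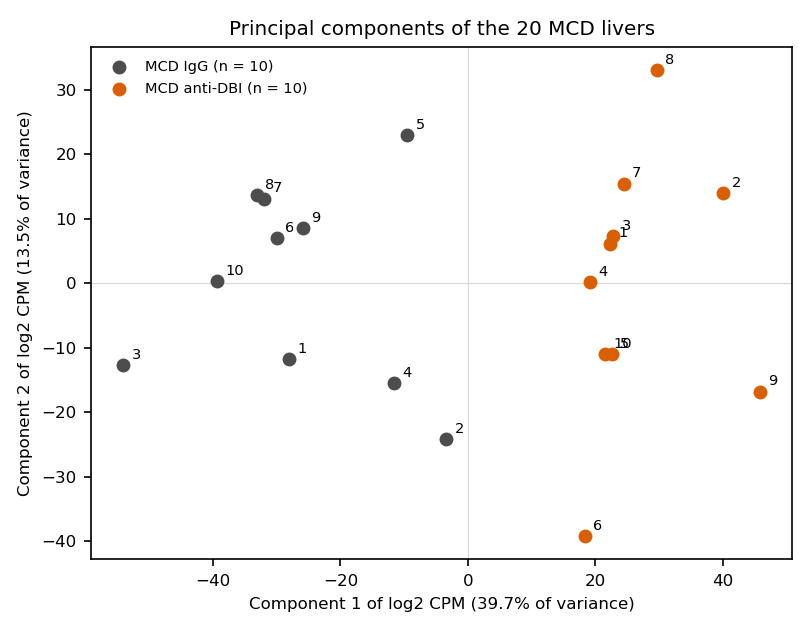
Principal components of log2 CPM of the 20 MCD livers, 1 point per liver with its replicate number, MCD IgG in grey and MCD anti-DBI in orange (n = 10 each). On component 1 (39.7% of variance) all MCD IgG points lie below 0 and all MCD anti-DBI points above it, and the MCD anti-DBI points 5 and 10 nearly coincide.

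Of 13538 genes tested with edgeR's quasi-likelihood test over these 20 livers, 5696 (42.1%) passed an adjusted p of 0.05 (Benjamini-Hochberg), 2756 higher with anti-DBI (20.4%) and 2940 lower (21.7%). Most of the changes were small. The median size among called genes was 0.45 on the log2 scale, and 3229 of them changed by less than 0.5. Changes of at least 1 on the log2 scale numbered 650 (4.8%), of which 201 were higher (1.48%) and 449 lower (3.32%), and at 2 or more 19 were higher and 77 lower. In 323 genes (2.39%) every anti-DBI liver was above every IgG liver, and in 192 (1.42%) every one was below. The median over all genes was -0.02, which is the level against which the medians of the gene lists below should be read.

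**Figure D2:**
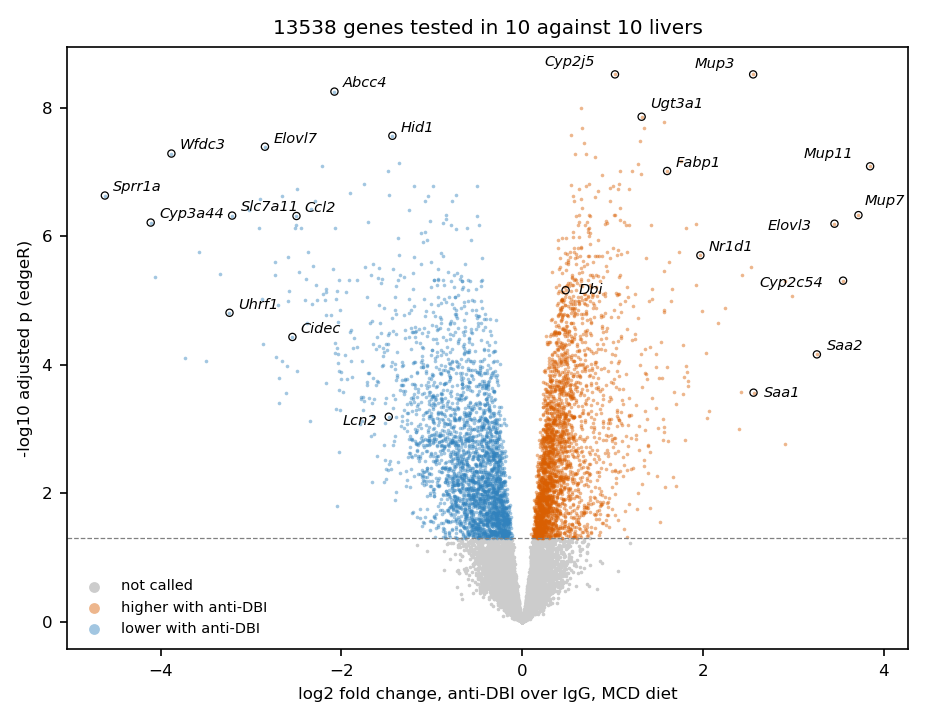
Each point is 1 of 13538 genes, with the log2 fold change of anti-DBI over IgG on MCD on the x axis and -log10 of the adjusted p from edgeR on the y axis. Genes higher with anti-DBI are orange, genes lower are blue, genes not called are grey, and the dashed line is an adjusted p of 0.05. The largest decreases reach -4.62 (Sprr1a) and the largest increases 3.85 (Mup11).

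Dbi itself, the gene of the protein that the antibody binds, was higher after the antibody. Its level was 280.1 to 344 CPM in MCD IgG (median 324) and 375 to 542 CPM in MCD anti-DBI (median 447), and the groups did not overlap. The log2 fold change was 0.48 (SE 0.064, edgeR adjusted p = 6.96e-06). Among the 9 genes tested in the list of ACBP relatives and receptor subunits, 4 rose and 1 fell (55.6% called, against 42.1% of all genes). Acbd5, a peroxisomal membrane protein with an acyl-CoA-binding domain, rose by 0.68, Eci2, an enoyl-CoA isomerase with such a domain, by 0.42, and Acbd6 by 0.32. Acbd3, a Golgi protein, fell (log2 fold change -0.38), a call that was lost in 3 of 32 alternative settings (adjusted p up to 0.0642, with MCD anti-DBI 5 and 10 left out). Gabra2, Gabrb2, Gabrg1 and Gabrg3, which encode subunits of the receptor, had 0 counts in all 20 livers, out of a summed 306.9 M, which allows each a level of up to 0.00977 CPM (3 counts, counting error only).

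The clearest increases were in hepatocyte genes with male-biased expression. Of 28 tested, 23 rose and 1 fell (85.7% called, against 42.1% of all genes), with a median log2 fold change of 1.32. Mup3, a major urinary protein that carries pheromones, was 96.8 to 186 CPM in MCD IgG (median 138) and 382 to 1111 CPM in MCD anti-DBI (median 804), with every anti-DBI liver above every IgG liver. This was a log2 fold change of 2.56 (SE 0.17, adjusted p = 3.05e-09). Mup11 and Mup7 had larger fold changes, 3.85 and 3.72, from medians of 0.302 and 0.810 CPM in MCD IgG. The Mup genes are near-identical copies, so reads may be split among them. Elovl3, a fatty acid elongase, rose by 3.46, Hsd3b5, a steroid dehydrogenase of male mouse liver, by 2.43, Slco1a1, an organic anion transporter, by 2.24, and Cyp4a12a, a fatty acid hydroxylase, by 2.17. The exception that fell was Gstp1, a glutathione transferase (-0.38).

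Of 20 genes with female-biased expression, 6 fell and 2 rose (40.0% called, near the 42.1% of all genes), with a median of -0.09. Cyp3a44 and Cyp3a41a, steroid hydroxylases of female mouse liver, fell by the most. Cyp3a44 was 14.1 to 223 CPM (median 76.5) in MCD IgG and 1.13 to 10.6 CPM (median 7.57) in MCD anti-DBI, so that the groups did not overlap, and the log2 fold change was -4.11 (adjusted p = 6.16e-07). Cyp3a41a changed by -3.73, Sult2a2, a steroid sulfotransferase, by -2.69, and Sult1e1, the oestrogen sulfotransferase, by -0.96, while Sult2a7 and A1bg rose by 1.83 and 1.67. Sex bias of liver genes is set by growth hormone. In that axis 7 of 15 genes rose and 2 fell, a share called above the 42.1% of all genes. Stat5b rose and Stat5a fell, while Jak2, Socs2, Socs3, Cish, Igfbp3 and Onecut1 did not pass the test. Bcl6, a repressor more abundant in male liver, was at 1.27, but its call was lost in 3 of 32 alternative settings, with an adjusted p of 0.177 by limma-voom and 0.357 by rank test. Egfr rose by 1.11 and Ghr, the growth hormone receptor, by 0.82, whereas Igf1 rose by only 0.36. Igfbp1, a fasting-induced binding protein of insulin-like growth factors, fell by 1.05 on the log2 scale (adjusted p = 0.0179). Without MCD IgG 5 its adjusted p was 0.0535.

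Enzymes of both ends of the liver lobule rose. Of 18 genes of the zone around the central vein, 12 were higher and 1 lower (72.2% called, against 42.1% of all genes, median 0.35). Of 18 genes of the zone around the portal tract, 11 were higher and 1 lower (66.7% called, median 0.46). Cyp2c54, an epoxygenase, went from 0.595 to 26.4 CPM in MCD IgG (median 3.90) to 54.0 to 216 CPM in MCD anti-DBI (median 86.6), with a log2 fold change of 3.55 (adjusted p = 4.94e-06) and no overlap. Its relatives Cyp2c50 and Cyp2c29 rose by 1.04 and 0.88, Cyp2e1 by 0.34 and Glul, the glutamine synthetase of the hepatocytes at the central vein, by 0.36. At the portal end, Hal, which starts histidine breakdown, rose by 0.93, Fbp1 by 0.75, Ass1, a urea cycle enzyme, by 0.54 and Alb by 0.43. Arg1 and Asl of the same cycle were at 0.13 and 0.21 with adjusted p values of 0.443 and 0.319. Of 17 transcription factors of hepatocytes, 6 rose and none fell (35.3% called, below the share of all genes). Cebpa rose most (0.74), followed by Cebpb (0.68). Detoxification genes rose in 18 of 31 cases (64.5% called) and fell in 2, among them Fmo5, a flavin monooxygenase, at -0.55.

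Cyp2j5, an arachidonic acid epoxygenase of hepatocytes, had the smallest p of all genes that rose. It was 139.6 to 180.3 CPM (median 147) in MCD IgG and 249.9 to 366 CPM (median 315) in MCD anti-DBI, and the groups were apart (log2 fold change 1.03, SE 0.069, adjusted p = 3.05e-09). Ugt3a1, which conjugates steroids and bile acids, rose by 1.32, the carboxylesterases Ces1f and Ces1e by 1.57 and 1.32, the aldehyde oxidase Aox3 by 1.34, the transporter Slc22a30 by 1.30 and the kinase Prkd3 by 1.09. Gas1, a membrane protein first found in growth-arrested cells, rose by 1.28. In all 8 of these genes the lowest anti-DBI liver was above the highest IgG liver, as in 2.39% of all genes. The 8 were picked for a small p in these same livers, so the separation adds no support.

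Secreted hepatocyte proteins rose as well. Of 32 complement and coagulation genes, 24 rose and 3 fell (84.4% called, median 0.36). C8b, of the membrane attack complex, rose by 1.15, Mbl1, a mannose-binding lectin, by 0.63 and F9, coagulation factor IX, by 0.54. The exceptions were C1qa, C1qb and C1qc, the chains of C1q, which macrophages make. They fell by 0.33, 0.56 and 0.42, and the call of C1qa was lost in 10 of 32 alternative settings and that of C1qc in 1.

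Acute phase proteins, which hepatocytes secrete under cytokine stimulation, split. Of 23 tested, 12 rose and 5 fell (73.9% called, against 42.1% of all genes, median 0.43). Saa1, serum amyloid A, was 11.5 to 439 CPM (median 70.0) in MCD IgG and 177 to 1114 CPM (median 725) in MCD anti-DBI. The groups overlapped, since MCD IgG 8 reached 439 CPM, but the log2 fold change was 2.56 (SE 0.49, adjusted p = 0.000273). Saa2, its close copy, rose by 3.26 (adjusted p = 6.93e-05). The fibrinogen chains Fga, Fgb and Fgg rose by 0.77, 0.80 and 0.89, and Serpina3n by 0.58. Lcn2, an iron-binding lipocalin induced by NF-kB, moved against them. It was 134 to 769 CPM (median 283) in MCD IgG and 78.5 to 197 CPM (median 108) in MCD anti-DBI, and although the ranges overlapped the log2 fold change was -1.48 (adjusted p = 0.000647). Saa3, a form that macrophages also make, fell too (-0.81), as did Apcs (-0.49), Steap4 (-0.57) and Hamp, the iron hormone hepcidin (-0.29). The call of Apcs was lost in 6 of 32 alternative settings (adjusted p up to 0.078). By rank test the adjusted p of Steap4 was 0.066, and in the fit of all 30 livers that of Hamp was 0.08.

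The sterol pathway rose nearly as a whole. Of 24 genes of cholesterol synthesis and uptake, 22 rose and none fell (91.7% called, median 0.80). Hmgcs1, which makes HMG-CoA, was 91.0 to 252 CPM (median 154) in MCD IgG and 177 to 921 CPM (median 467) in MCD anti-DBI, with overlapping groups and a log2 fold change of 1.48 (SE 0.24, adjusted p = 6.85e-05). Fdps, Msmo1 and Idi1, further down the pathway, rose by 1.38, 1.37 and 1.30. Stard4, a sterol carrier, rose by 1.13 and Insig1, which holds back SREBP processing, by 1.06.

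SREBP proteins activate these genes through sterol regulatory elements, so the promoters were searched for TCACNCCAC on both strands in RefSeq sequences of build GRCm38.p6, each running from 250 bases before to 50 bases after the start of transcription. Of the 24 genes tested, 16 had a promoter in that table, and 1 of the 16 (6.25%) held the motif, against 1.44% of 27025 genes with a promoter. A share resting on 1 gene, in a list of known pathway genes, says nothing about these livers. That gene was Hmgcs1, whose promoter lies on the plus strand at chr13:119690101-119690400. It is shown as the only promoter of the list with a match, which is in capitals. Hmgcs1 also rose most in the list.
Hmgcs1: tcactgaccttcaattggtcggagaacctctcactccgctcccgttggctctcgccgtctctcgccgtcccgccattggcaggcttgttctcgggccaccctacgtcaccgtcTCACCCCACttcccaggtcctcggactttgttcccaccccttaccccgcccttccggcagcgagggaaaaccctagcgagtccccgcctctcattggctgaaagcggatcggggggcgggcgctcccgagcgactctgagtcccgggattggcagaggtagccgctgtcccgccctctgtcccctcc

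Of 17 genes of fatty acid synthesis, 4 rose and 1 fell (29.4% called, below the 42.1% of all genes). Fasn, the fatty acid synthase, was at -0.11 (adjusted p = 0.887), Acaca at -0.44 (adjusted p = 0.136) and Scd1, the main desaturase of liver, at 0.39 (adjusted p = 0.506). Those that rose included Acss2, which activates acetate (1.04), and Mlxipl, the carbohydrate-responsive factor ChREBP (0.65), and the one that fell was Scd2 (-0.71).

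Genes of fatty acid oxidation rose in 19 of 27 cases and fell in 1 (74.1% called, against 42.1% of all genes, median 0.37). Acot1, a cytosolic acyl-CoA thioesterase, rose by 2.40, Cyp4a10 and Cyp4a14, omega-hydroxylases, by 1.35 and 1.28, and Ehhadh, a peroxisomal enzyme, by 1.18. The call of Cyp4a14 was lost in 3 of 32 alternative settings and that of Ehhadh in 1 (adjusted p up to 0.0966 and 0.0887). The mitochondrial Cpt2 and Hadh rose by 0.50 and 0.38. Cpt1a, the entry step into mitochondria, was at 0.07 (adjusted p = 0.668). Acot2, the mitochondrial thioesterase, fell (-0.79).

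Lipid droplet and lipid uptake genes went both ways, 4 of 22 rising and 6 falling (45.5% called, near the share of all genes, median -0.04). Cidec, which fuses lipid droplets, was 26.8 to 169 CPM (median 68.4) in MCD IgG and 2.91 to 40.7 CPM (median 8.72) in MCD anti-DBI. MCD anti-DBI 6 was above the lowest IgG livers, and the log2 fold change was -2.54 (SE 0.40, adjusted p = 3.71e-05). Lpl, lipoprotein lipase, fell by 1.20, Hilpda, a lipolysis inhibitor, by 0.56 and Fabp4 by 0.55, whereas Plin2, the main coat protein of liver droplets, was at -0.27 (adjusted p = 0.247). The call of Fabp4 was lost in 8 of 32 alternative settings (adjusted p up to 0.0832, without MCD IgG 9). Fabp1, the cytosolic fatty acid carrier of hepatocytes, rose. Its level was 325 to 783 CPM (median 638) in MCD IgG and 1229 to 2461 CPM (median 1824) in MCD anti-DBI, without overlap (log2 fold change 1.60, adjusted p = 9.71e-08). Of 16 apolipoprotein and VLDL genes, 7 rose and Apoa4, an apolipoprotein that rises in fatty liver, fell by 1.66, while Apoh rose by 0.78 and Apoc1 by 0.75.

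Bile acid genes rose in 15 of 27 cases and fell in 2 (63.0% called, against 42.1% of all genes). Cyp8b1, the sterol hydroxylase needed for cholic acid, was 67.0 to 204 CPM (median 105) in MCD IgG and 124 to 541 CPM (median 362) in MCD anti-DBI, with a log2 fold change of 1.66 (adjusted p = 6.77e-06) and overlapping groups. Cyp7a1, the rate-limiting enzyme of bile acid synthesis, rose by 0.71, the uptake carriers Slc10a1 and Slco1b2 by 1.10 and 0.76, and Abcb11, the canalicular export pump, by 0.79. The members that fell are exporters of the blood side of the hepatocyte. Abcc4 was 33.0 to 49.8 CPM (median 40.6) in MCD IgG and 3.91 to 15.3 CPM (median 9.82) in MCD anti-DBI, far apart (log2 fold change -2.08, SE 0.15, adjusted p = 5.65e-09), the smallest p among genes that fell. Slc51b, of the organic solute transporter, fell by 1.03.

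The diet removes methionine and choline, and the genes that handle both moved. Of 24 genes of the methionine cycle and its branches, 12 rose and 5 fell (70.8% called, against 42.1% of all genes). Among those that rose were genes of sulfur disposal, with Cth and Cbs, which turn homocysteine into cysteine, at 0.92 and 0.82, Gnmt, which consumes S-adenosylmethionine, at 0.84, and Csad, which leads to taurine, at 1.02. Among those that fell were Srm (-0.71), Amd1 (-0.44) and Sms (-0.28), of polyamine synthesis, where the call of Sms was lost in 4 of 32 alternative settings (adjusted p up to 0.09). Mat1a, the liver methionine adenosyltransferase, was at 0.16 (adjusted p = 0.234). In choline and phospholipid metabolism 9 of 18 genes rose and 3 fell (66.7% called). Chpt1, the last step of phosphatidylcholine synthesis from choline, was 54.2 to 84.9 CPM (median 72.1) in MCD IgG and 129.9 to 242 CPM (median 156) in MCD anti-DBI, without overlap (log2 fold change 1.21, adjusted p = 9.71e-08). Pemt, the alternative route from phosphatidylethanolamine, was at -0.09 (adjusted p = 0.408). Lpcat1, which rebuilds phosphatidylcholine from its lyso form, fell by 0.74.

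**Figure D3:**
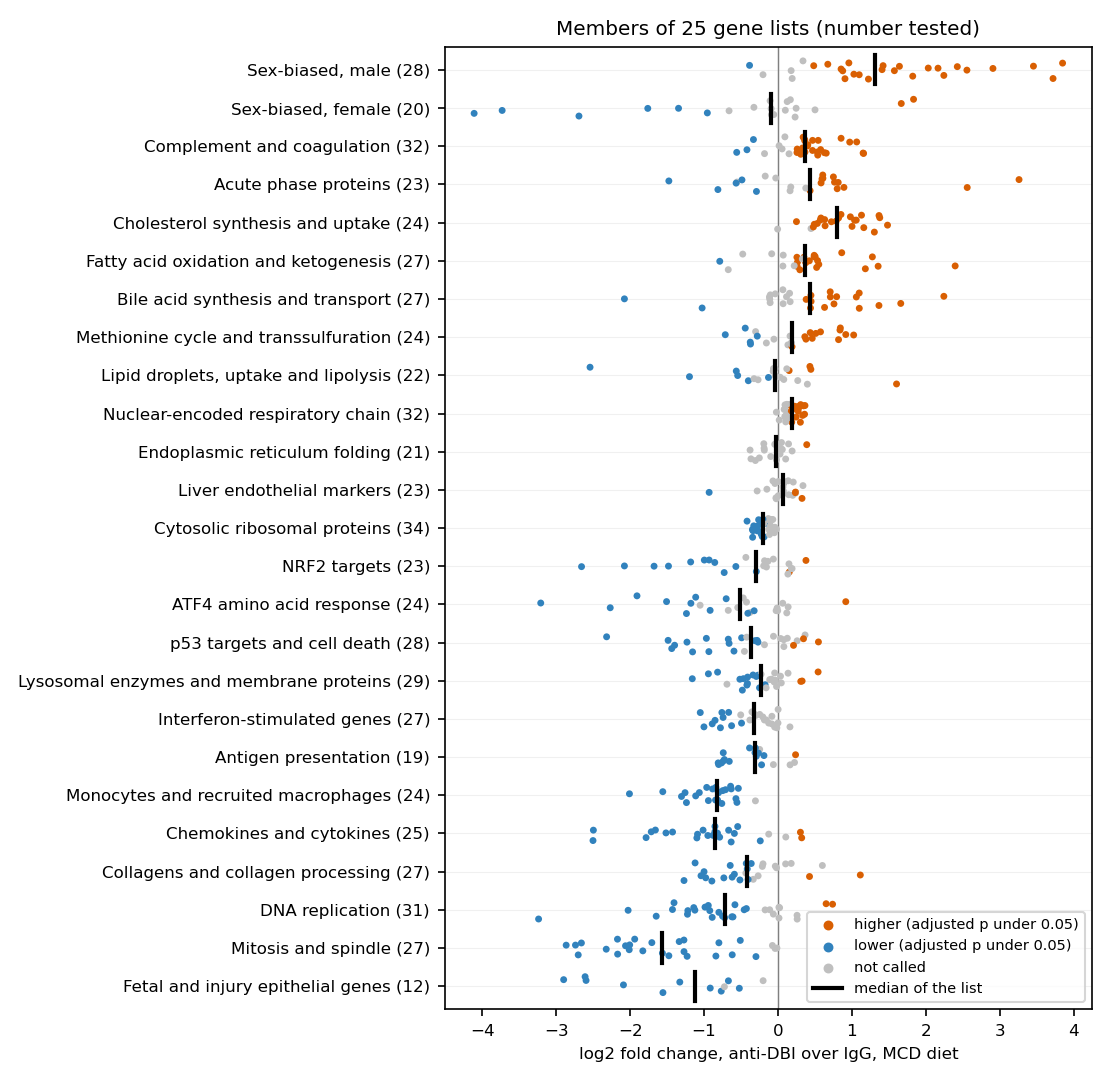
Log2 fold change of anti-DBI over IgG on MCD (x axis) for every tested member of 25 gene lists, 1 point per gene, orange where higher, blue where lower and grey where not called at an adjusted p of 0.05, with the list's median as a black bar and the number tested in brackets. Medians run from 1.32 for male-biased genes to -1.56 for mitosis, and the endoplasmic reticulum folding and endothelial lists lie around 0.

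Stress genes fell, but not in every pathway. Among 24 genes of the amino acid response, which the factor ATF4 drives when amino acids are short, 11 fell and 1 rose (median -0.51). Slc7a11, which imports cystine, was 2.61 to 9.36 CPM (median 5.61) in MCD IgG and 0 to 1.40 CPM (median 0.564) in MCD anti-DBI, without overlap (log2 fold change -3.21, SE 0.34, adjusted p = 4.8e-07). Aldh1l2, a mitochondrial folate enzyme, fell by 2.27, the factor Atf3 by 1.91, Nupr1 by 1.51 and Gdf15, a stress hormone, by 1.24. Asns and Trib3, classical targets, were at -0.47 (adjusted p = 0.0898) and -0.38 (adjusted p = 0.263), Fgf21 at -0.67 (adjusted p = 0.371), and Atf4 mRNA itself had an adjusted p of 0.986. The member that rose was Cth (0.92). Of 21 genes of protein folding in the endoplasmic reticulum, 1 rose and none fell (4.76% called). Hspa5, the chaperone BiP, was at -0.38 (adjusted p = 0.247) and the exception was Herpud1 (0.39).

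The element through which ATF4 and C/EBP proteins act was searched as TGATGNAA on both strands. It was found in 8 of the 21 list members with a promoter in the RefSeq table against 4.51% of all 27025 genes. The 8 were Asns, Atf3, Chac1, Fgf21, Nupr1, Slc7a11, Trib3 and Vldlr, of which Atf3, Nupr1 and Slc7a11 fell, while the other 5 did not pass the test. Lists of this kind were assembled from known targets, so the share says nothing about these livers. Slc7a11 (minus strand, chr3:50443564-50443863) and Atf3 (minus strand, chr1:191183284-191183583) had the smallest p among the members with a match and are shown with the matches in capitals.
Slc7a11: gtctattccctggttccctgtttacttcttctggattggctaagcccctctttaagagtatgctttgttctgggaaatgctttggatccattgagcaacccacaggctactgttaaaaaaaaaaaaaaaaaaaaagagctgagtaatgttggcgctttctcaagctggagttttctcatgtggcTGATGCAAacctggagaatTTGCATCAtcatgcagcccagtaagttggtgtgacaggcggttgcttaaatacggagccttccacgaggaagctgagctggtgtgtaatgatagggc
Atf3: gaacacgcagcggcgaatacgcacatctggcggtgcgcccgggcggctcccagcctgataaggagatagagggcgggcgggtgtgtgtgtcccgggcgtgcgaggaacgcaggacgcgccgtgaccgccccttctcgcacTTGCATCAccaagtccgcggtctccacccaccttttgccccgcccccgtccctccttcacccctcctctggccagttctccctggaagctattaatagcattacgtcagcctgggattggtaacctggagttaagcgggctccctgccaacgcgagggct
Slc7a11 held 2 matches, 1 on each strand, and Atf3 held 1.

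Antioxidant genes under NRF2 fell in 11 of 23 cases and rose in 2 (56.5% called, against 42.1% of all genes, median -0.29). Of the 23, 6 fell without overlap, where 1.42% of all genes did. Srxn1, sulfiredoxin, was 121 to 280.4 CPM (median 187) in MCD IgG and 49.95 to 84.6 CPM (median 74.9) in MCD anti-DBI, without overlap (log2 fold change -1.48, adjusted p = 9.71e-08). Gsta1, a glutathione transferase, fell by 2.66 and Gpx4, which reduces lipid peroxides, by 0.57. Gclm, which sets the rate of glutathione synthesis with Gclc, rose (0.38), and Gclc was at 0.18 (adjusted p = 0.182). The antioxidant response element was searched as TGACNNNGC and found in 8 of 20 list members with a promoter (40.0%) and in 13.99% of all genes. This list too was assembled from known targets, so the share says nothing about these livers. The promoters of Abcc4 (minus strand, chr14:118706170-118706469), which this list also holds, and of Srxn1 (plus strand, chr2:152105274-152105573) are shown because these genes had the smallest p. Each has 1 match in capitals that reads on the opposite strand. Only the pattern searched is marked, so tgagtcagc in Srxn1, which differs from it at 1 base, is not.
Abcc4: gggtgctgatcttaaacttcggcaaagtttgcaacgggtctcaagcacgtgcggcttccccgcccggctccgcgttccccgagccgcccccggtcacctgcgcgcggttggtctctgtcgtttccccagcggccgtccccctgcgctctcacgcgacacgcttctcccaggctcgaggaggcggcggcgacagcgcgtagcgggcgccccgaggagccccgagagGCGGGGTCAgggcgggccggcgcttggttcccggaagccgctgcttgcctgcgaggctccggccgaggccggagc
Srxn1: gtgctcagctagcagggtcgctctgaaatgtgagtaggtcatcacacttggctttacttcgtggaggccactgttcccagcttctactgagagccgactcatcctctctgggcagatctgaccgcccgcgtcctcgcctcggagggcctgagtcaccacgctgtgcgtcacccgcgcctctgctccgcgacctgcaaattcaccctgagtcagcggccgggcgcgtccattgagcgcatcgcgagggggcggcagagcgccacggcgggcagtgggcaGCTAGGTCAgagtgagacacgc

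Targets of p53 and cell death genes fell in 15 of 28 cases and rose in 3 (64.3% called, against 42.1% of all genes). Cdkn1a, the cell cycle inhibitor p21, was 7.14 to 28.5 CPM (median 19.4) in MCD IgG and 1.53 to 8.26 CPM (median 3.54) in MCD anti-DBI, where the highest anti-DBI liver was just above the lowest IgG liver (log2 fold change -2.32, adjusted p = 2.94e-06). Phlda3 and Eda2r fell by 1.40 and 1.49, whereas Fas rose by 0.35.

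Of 36 autophagy genes, 15 rose, 3 fell and 18 did not pass (median 0.18), a share called that is near the 42.1% of all genes. Gabarapl1, of the LC3 family, rose by 0.78, the kinase Ulk2 by 0.74, and Atg14, of the lipid kinase complex that starts autophagosomes, by 0.60. Those that fell were Sqstm1, the receptor p62 (-0.46, adjusted p = 0.00266), and the factors Tfeb and Tfe3, which drive lysosomal genes (-0.36 and -0.26). Lysosomal genes fell in 14 of 29 cases and rose in 3 (58.6% called, median -0.23). The count that fell was 8 without MCD IgG 3. Cd63 and Cd68, which macrophages express strongly, fell by 1.16 and 0.94, and Ctss was at -0.82, Ctsl at -0.42 and Gusb at -0.47, while Lamp2 rose by 0.54. Without MCD IgG 3 the adjusted p of Ctss was 0.063.

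Genes of recruited myeloid cells were lower with anti-DBI. Of 24 monocyte and macrophage genes, 23 fell and none rose (95.8% called, median -0.83), although all but 1 of them overlapped between the groups. Ccr2, the chemokine receptor by which monocytes enter tissue, was 4.63 to 15.04 CPM (median 9.12) in MCD IgG and 1.70 to 4.31 CPM (median 3.22) in MCD anti-DBI, without overlap (log2 fold change -1.56, SE 0.20, adjusted p = 5.38e-06). Cd14, a receptor for bacterial endotoxin, fell by 1.30, Msr1, a scavenger receptor, by 0.80 and Chil3 by 2.01. Genes of lipid-associated macrophages fell in 9 of 15 cases and none rose, a share called above the 42.1% of all genes. Lgals3, galectin-3, was 52.7 to 225 CPM (median 106) in MCD IgG and 12.5 to 114 CPM (median 49.1) in MCD anti-DBI, with overlap (log2 fold change -1.37, adjusted p = 0.00324). Trem2, a lipid receptor, fell by 0.93, Itgax by 1.13 and Capg by 1.18, whereas Gpnmb and Spp1 were at -0.86 and -0.56 with adjusted p values of 0.158 and 0.053. The call of Trem2 was lost in 8 of 32 alternative settings (adjusted p up to 0.0816, without MCD IgG 3). Of 12 markers of resident Kupffer cells, 2 were higher and 3 lower (41.7% called, as among all genes), with a median of 0.14, and the difference from the recruited cells was not tested. Clec4f, Vsig4 and Timd4, which define these cells, were at 0.36, 0.05 and 0.68 with adjusted p values of 0.205, 0.839 and 0.147.

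Signals that recruit these cells fell too. Of 25 chemokine and cytokine genes, 21 fell and 2 rose (92.0% called, median -0.85), and another 8 were too low to test, Il6 among them. Ccl2, the ligand of CCR2, was 3.56 to 9.18 CPM (median 7.10) in MCD IgG and 0.170 to 2.25 CPM (median 1.20) in MCD anti-DBI, without overlap (log2 fold change -2.50, adjusted p = 4.87e-07). Cxcl2, a neutrophil attractant, fell by 2.50, Ccl6 by 1.09 and Tgfb1 by 0.63, and Csf1, the growth factor of macrophages, was at -1.01. The exceptions were Cxcl12 (0.30), which stromal cells make, and Il18 (0.32), whose call was lost in 18 of 32 alternative settings. Feedback genes and adhesion molecules under NF-kB fell in 12 of 17 cases and rose in 1 (76.5% called, against 42.1% of all genes). Tnfaip3, the inhibitor A20, was 12.9 to 20.7 CPM (median 15.8) in MCD IgG and 3.80 to 8.72 CPM (median 6.54) in MCD anti-DBI, without overlap (log2 fold change -1.37, adjusted p = 7.36e-08). Vcam1 and Icam1, to which leukocytes adhere, were at -1.01 and -0.73. Interferon-stimulated genes fell in 10 of 27 cases and none rose (37.0% called, no more than among all genes), with Ifit2 and Rsad2 at -0.85 and -0.89. Antigen presentation genes fell in 14 of 19 cases and rose in 1 (78.9% called). Those of MHC class II led the decrease, with Cd74 (-0.81), H2-Eb1 (-0.76) and H2-Aa (-0.74), while B2m, which belongs to class I, rose by 0.24.

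**Figure D4:**
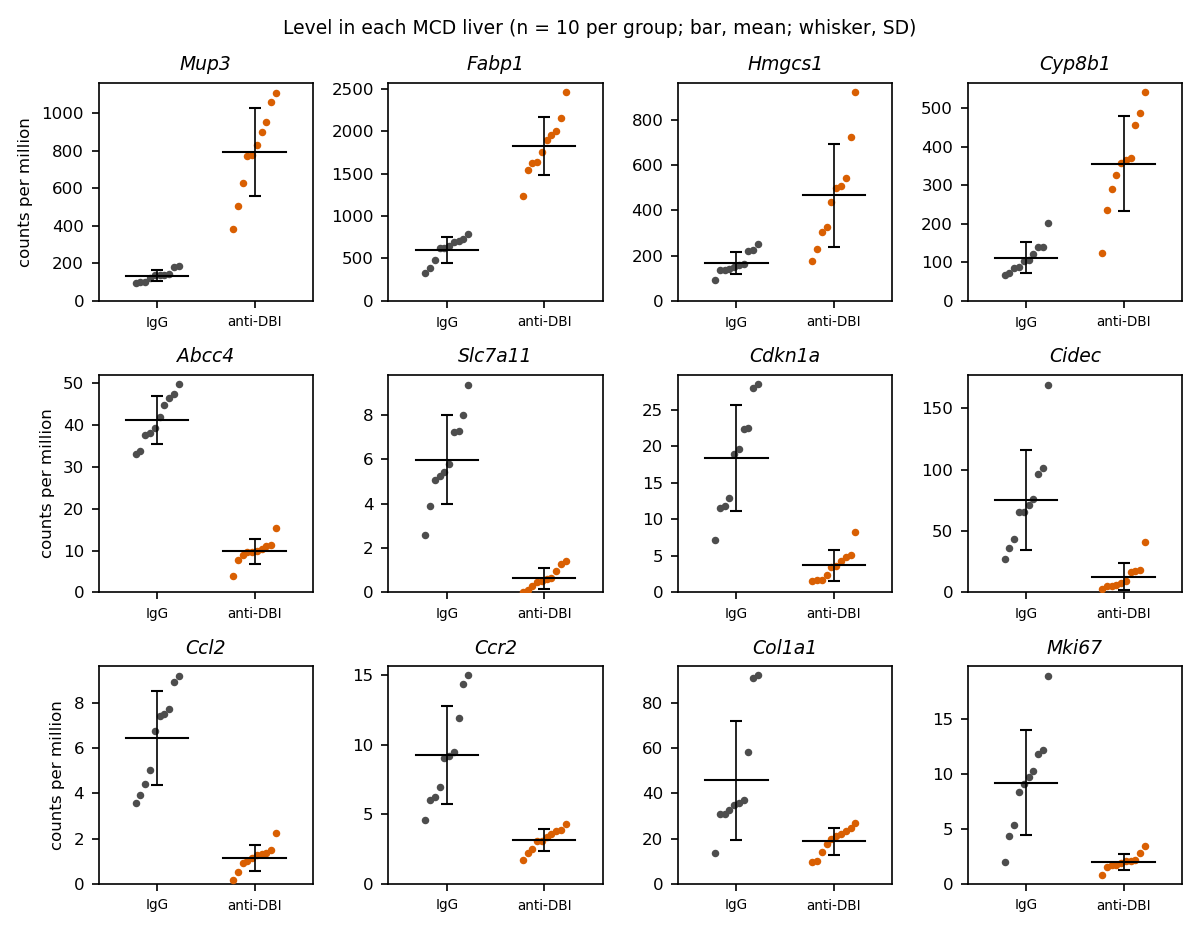
Level in each of the 20 MCD livers of 12 genes, in CPM on linear axes from 0, with MCD IgG in grey and MCD anti-DBI in orange (n = 10 each), the mean as a bar and the SD as whiskers; points are spread sideways by rank. Mup3, Fabp1, Hmgcs1 and Cyp8b1 are higher with anti-DBI and the other 8 lower, and Ccl2, for example, reaches at most 2.25 with anti-DBI against at least 3.56 with IgG.

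Of 27 collagens and collagen-processing genes, 15 fell and 2 rose (63.0% called, median -0.42). Col1a1, the main fibrillar collagen of scars, was 13.8 to 92.0 CPM (median 35.3) in MCD IgG and 9.50 to 26.9 CPM (median 20.5) in MCD anti-DBI, with overlap (log2 fold change -1.27, SE 0.27, adjusted p = 0.000833). Col3a1 fell by 1.12, Col1a2 by 0.89, Col4a1, of basement membranes, by 0.73 and Lox, which cross-links collagen, by 0.98, although the call of Lox was lost in 3 of 32 alternative settings (adjusted p up to 0.0911). Col5a3 and Col18a1 rose by 1.11 and 0.43. Col18a1 is a collagen that hepatocytes make. Of 31 other matrix genes 12 fell and 1 rose (41.9% called, no more than the 42.1% of all genes), with Thbs1 at -1.32, Adamts1 at -0.90 and Fn1, fibronectin, as the one that rose (0.26). Timp1, an inhibitor of matrix proteases, was at -0.58 (adjusted p = 0.184). Genes of stellate cell activation fell in 13 of 30 cases and none rose (43.3% called, near the share of all genes). Acta2, the smooth muscle actin of activated stellate cells, was at -1.02 (adjusted p = 0.00267) and Tagln at -0.82, whereas Pdgfra and Des were at -0.09 (adjusted p = 0.577) and -0.27 (adjusted p = 0.0711). Markers of quiescent stellate cells had a median of 0.01, with 3 of 14 higher and 2 lower (35.7% called), and Lrat, which stores retinol in them, was at -0.17 (adjusted p = 0.257).

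Proliferation genes had the lowest median of any list. Of 27 genes of mitosis and the spindle, 24 fell and none rose (88.9% called, median -1.56), and 6 further genes were too low to test. Mki67, which marks cycling cells, was 1.96 to 18.9 CPM (median 9.37) in MCD IgG and 0.776 to 3.47 CPM (median 1.95) in MCD anti-DBI, with overlap through the lowest IgG liver (log2 fold change -2.17, SE 0.29, adjusted p = 6.77e-06). Ccnb1, cyclin B, fell by 2.87, Tpx2, a spindle protein, by 2.74 and Foxm1, a factor that drives mitotic genes, by 2.01. With at least 10 counts asked of every library, 6 of the 8 members then tested were lower. Of 31 replication genes 21 fell and 2 rose (74.2% called, median -0.72). Uhrf1, which maintains DNA methylation, was 1.51 to 29.5 CPM (median 7.77) in MCD IgG and 0.340 to 1.499 CPM (median 0.747) in MCD anti-DBI, with MCD IgG 3 far above the rest and no overlap (log2 fold change -3.24, adjusted p = 1.56e-05). Among genes of the replicative helicase, Mcm5 fell by 2.03, Mcm2 by 1.65 and Mcm6 was at -1.22. Mcm10, a replication gene that does not encode a subunit of that helicase, rose by 0.74, without overlap. It had a mean of 95.6 CPM in MCD anti-DBI.

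E2F factors switch on replication genes through a site searched here as TTTNNCGC on both strands. It was found in 12 of 25 list members with a promoter in the RefSeq table (48.0%) and in 5.93% of all genes. As the list was assembled from known replication genes, this share says nothing about these livers. Uhrf1 (plus strand, chr17:56303087-56303386) and Mcm6 (minus strand, chr1:128359656-128359955) had the smallest p among the members with a match and are shown with matches in capitals. Mcm6 held 3 matches, of which 2 overlap on opposite strands, and Uhrf1 held 1.
Uhrf1: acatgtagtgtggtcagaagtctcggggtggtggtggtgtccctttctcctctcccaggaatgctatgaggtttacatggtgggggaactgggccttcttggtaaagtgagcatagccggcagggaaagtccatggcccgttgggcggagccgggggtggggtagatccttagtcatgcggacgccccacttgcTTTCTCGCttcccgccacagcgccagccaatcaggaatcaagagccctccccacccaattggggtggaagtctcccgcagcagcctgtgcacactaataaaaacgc
Mcm6: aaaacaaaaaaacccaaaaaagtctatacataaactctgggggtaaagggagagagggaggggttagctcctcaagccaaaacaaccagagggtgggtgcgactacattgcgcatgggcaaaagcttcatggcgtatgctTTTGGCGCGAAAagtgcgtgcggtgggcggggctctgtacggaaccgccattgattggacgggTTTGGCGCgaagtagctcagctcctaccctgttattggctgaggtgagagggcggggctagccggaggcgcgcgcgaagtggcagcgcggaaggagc

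Genes of fetal and injured liver epithelium fell in 10 of 12 cases and none rose (83.3% called, median -1.12). Afp, alpha-fetoprotein, was 9.38 to 56.7 CPM (median 15.5) in MCD IgG, with MCD IgG 3 at the top, and 2.61 to 5.99 CPM (median 4.79) in MCD anti-DBI, without overlap (log2 fold change -2.09, adjusted p = 3.24e-06). Ly6d fell by 2.90, the imprinted RNA H19 by 2.61, the keratin Krt23 by 2.60 and Anxa2 by 1.56. Of 13 cholangiocyte markers 1 was higher and 1 lower (15.4% called). Sprr1a, a small proline-rich protein of stressed epithelia, had the largest decrease of all called genes. It was 7.49 to 53.8 CPM (median 15.3) in MCD IgG and 0 to 2.25 CPM (median 0.662) in MCD anti-DBI, without overlap (log2 fold change -4.62, SE 0.46, adjusted p = 2.34e-07). Other genes with the smallest p among those that fell were Hid1 (-1.44), of dense-core vesicles, Elovl7, a fatty acid elongase (-2.85), Wfdc3 (-3.88), Cfap44, of cilia (-2.22), Pls1, an actin bundler (-1.75), Etv5, an ETS factor (-1.19), Neurl1a (-2.49), Fam129a (-1.91) and the actin-binding Tagln2 (-1.47). All 9 were lower in every anti-DBI liver than in every IgG liver, as were 1.42% of all genes. They too were picked for a small p in these livers, so the separation adds no support.

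Energy genes changed by small amounts. Of 32 nuclear genes of the respiratory chain 19 rose and none fell (59.4% called), with a median of 0.18 and none above 0.37. Of 34 ribosomal protein genes 19 fell and none rose (55.9% called), with a median of -0.20 and none below -0.42. Under upper-quartile scaling, which lowered the median of all genes to -0.06, both lists kept their direction. Of 33 genes of sugar metabolism 12 fell and 4 rose (48.5% called, near the share of all genes). Among the former were Pck2, the mitochondrial PEP carboxykinase (-1.07), Pfkp (-0.76) and Aldoa (-0.60), glycolytic isoforms more common outside hepatocytes, and among the latter Fbp1 (0.75), of gluconeogenesis, and Gys2 and Pygl, of liver glycogen (0.56 and 0.51).

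Clock genes rose in 11 of 20 cases and fell in 3 (70.0% called, against 42.1% of all genes). Nr1d1, the repressor REV-ERBalpha, was 20.3 to 92.2 CPM (median 36.6) in MCD IgG and 109.7 to 236 CPM (median 166) in MCD anti-DBI, without overlap (log2 fold change 1.97, SE 0.23, adjusted p = 1.99e-06). Dbp, a clock output factor, rose by 1.07, whereas Per2 and Cry1 fell by 0.62 and 0.67. The hour of tissue collection is not given in the sources used here. It and the antibody therefore cannot be told apart in these genes, or in any other gene whose level varies over the day. Which genes of the other lists do so was not tested.

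Markers of other cell types were checked beside the changes above. Of 14 neutrophil markers only 3 could be tested, and S100a8, S100a9 and Csf3r fell by 0.78, 0.80 and 0.75, while the summed level of the list was 8.91 to 25.7 CPM in MCD IgG and 4.75 to 13.8 CPM in MCD anti-DBI. Of 21 T and NK cell markers 9 were tested and 2 fell (22.2% called). Among B and plasma cell markers 3 of 10 rose and none fell, a share called below the 42.1% of all genes. Those that rose were Igkc, Jchain and Ighg2b, by 0.72, 1.30 and 1.22 from means of 4.00, 0.508 and 0.754 CPM. Liver endothelial markers changed in 4 of 23 cases (17.4% called), and Lyve1, of sinusoidal endothelium, fell by 0.93. Of 7 tested transcripts of red cells and platelets 2 rose and 1 fell (42.9% called, near the 42.1% of all genes), with Alas2 at 0.75 and Pf4 at -1.35. The part of these cell types in the changes of other lists was not tested.

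The response to anti-DBI differed between the diets in 2752 of 14335 genes (19.2%, edgeR interaction over all 30 livers, adjusted p under 0.05), 1515 of them more positive on MCD (10.6%) and 1237 more negative (8.63%). Among the genes described with their values above, Mup3 had an interaction of 2.57 (adjusted p = 3.71e-07), Fabp1 of 1.57 (adjusted p = 6.21e-05) and Abcc4 of -1.80 (adjusted p = 5.73e-05), meaning that the change on MCD exceeded that on RCD in the direction described. On RCD, Mup3 was at 9148 ± 823 CPM with IgG and at 9130 ± 816 CPM with anti-DBI (SD, n = 5 each), far above either MCD group. RCD levels are scaled over all 30 livers. Dbi differed by 0.46 (adjusted p = 0.00255), and RCD livers held 588 ± 41.1 CPM with IgG and 600.3 ± 45.1 CPM with anti-DBI. Saa1 and Saa2 went the same way on both diets but less on MCD, with interactions of -3.20 and -3.58 (adjusted p = 0.00324 for both). Lcn2 went opposite ways, up on RCD, from 2.13 ± 0.445 to 48.2 ± 44.6 CPM, and down on MCD (interaction -5.98, adjusted p = 2.01e-06). For Etv5, which went from 6.43 ± 1.00 to 4.11 ± 0.623 CPM on RCD, no difference between the diets was detected (interaction -0.53, SE 0.20, adjusted p = 0.0543).

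**Figure D5:**
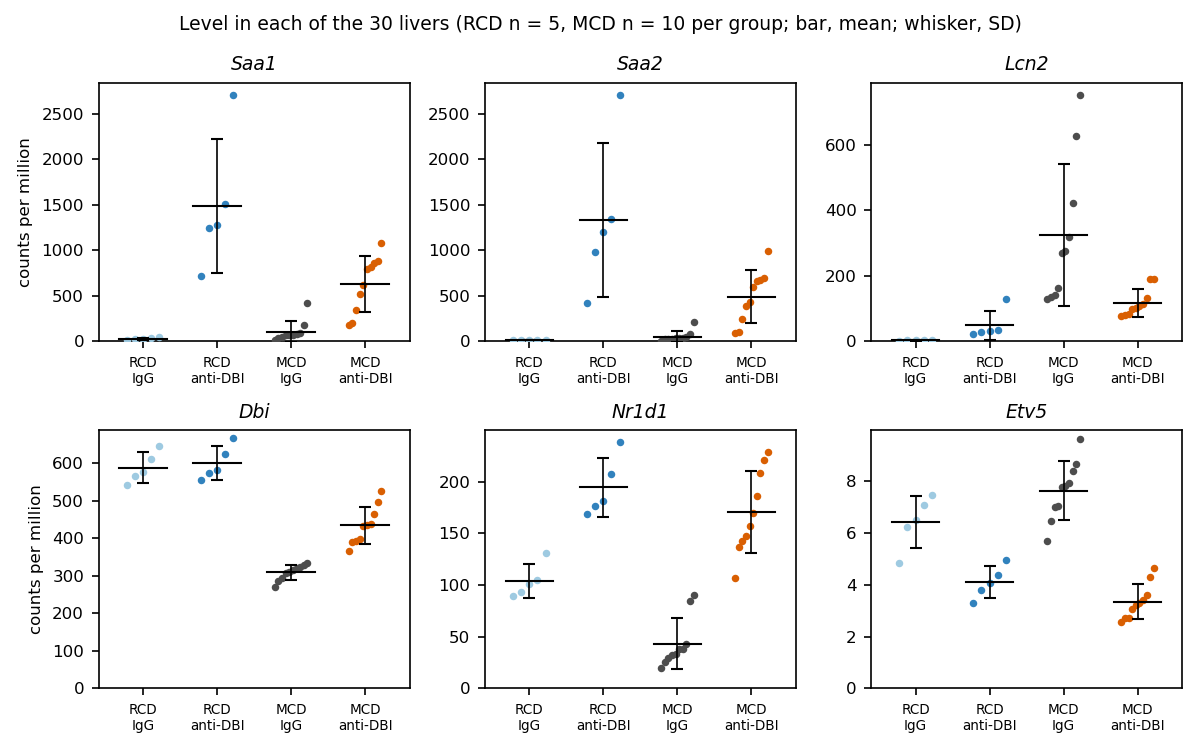
Level of 6 genes in each of the 30 livers, in CPM scaled over all 30 livers on linear axes from 0, for RCD IgG and RCD anti-DBI (n = 5 each) and MCD IgG and MCD anti-DBI (n = 10 each), with the mean as a bar and the SD as whiskers. Lcn2 is higher with anti-DBI on RCD and lower with it on MCD, Saa1 and Saa2 are higher with it on both diets, Dbi is higher with it on MCD, and Etv5 is lower with it on both.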

How the data were processed

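Liver RNA of 30 mice was measured by RNAseq, with groups taken from the labels, and the 20 MCD livers made up the comparison. The authors deposited whole-number counts per gene for 55487 genes (unit: counts, not normalized), which were used here as deposited. Per the file headers these came from STAR and featureCounts on GRCm38 with Ensembl release 102, while the methods of the study name HISAT2 and GRCm39, so the upstream route is uncertain, and tool versions and strandedness are not given in the sources used here. Reads of overlapping genes, antisense partners and near-identical copies may therefore be shared. A further 30 columns held the counts divided by DESeq2 size factors, and 30 held the authors' comparisons (DESeq2 Wald tests with shrunken fold changes and adjusted p-values), and neither set was used.

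The analysis used edgeR 4.0.16 and limma 3.58.1 under R 4.3.3, and plots were drawn with matplotlib 3.10.9 (Python 3.11.15). After filterByExpr and TMM scaling, the 20 MCD livers were fitted with glmQLFit and compared with glmQLFTest, and p-values were adjusted over all genes by Benjamini-Hochberg (threshold 0.05). A model of all 30 livers gave the antibody by diet interaction. The SE is the log2 fold change divided by the square root of F, and levels are TMM-scaled CPM. On simulated counts with the sizes of these libraries (13538 genes), 94.5% of genes with a true log2 change of 1 and 67% of those with 0.5 were called. Changes were given only to genes averaging above 1 CPM, so the rates do not cover genes below it. Far fewer genes were changed than were called in the data, so the adjustment of p-values also differed.

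The genes named were, in each direction, the 12 with the smallest adjusted p among those averaging 1 CPM or more and changed by a log2 of 1 or more, the 6 with the largest fold change among those averaging 5 CPM or more (predicted genes left out), Dbi, up to 4 called members per list, called members against the majority of a list, and defining members that did not pass. Further list members were named after their values were seen. The comparison and its 52 gene lists (1143 genes, of which 1139 were found) were chosen with earlier results of these data known. Some genes that this rule gives are not reported here. For promoters, the 2 members with the smallest p among those with a motif were shown.

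Alternatives were RLE and upper-quartile scaling, no filter, at least 10 counts in every library, a replicate block, MCD anti-DBI 5 and 10 summed or left out, thinning to equal totals, all 30 livers in 1 fit, DESeq2 1.42.0, limma-voom, the Wilcoxon-Mann-Whitney test and leaving out each liver. The labels do not tie a replicate number to a shared cage or day, and whether the p-values cover more than the spread between these mice cannot be told.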

Additional observations from a re-analysis of the deposited data

Results flagged for a closer look

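In 50 genes, single livers were compared with the other 9 of their group by Dixon's ratio. Of 100 groups, 15 held a liver that stood apart. The limit used marks about 1 in 20 only for independent values with a normal spread. Here CPM were not log-transformed and the genes share the same livers. Each liver marked was the highest of its group, so the 15 cannot be read as an excess over chance. MCD IgG 3 was the highest of its group in 5 of these, with 0.849 CPM of Mup11, 93.2 CPM of Ly6d, 29.5 CPM of Uhrf1, 169 CPM of Cidec and 56.7 CPM of Afp. MCD IgG 8 was the highest for Saa1 (439 CPM) and Saa2 (214 CPM). Among the other MCD IgG livers, liver 1 was highest for Mup7 (2.84 CPM), liver 5 for Sprr1a (53.8 CPM) and liver 2 for Cyp8b1 (203 CPM). On the anti-DBI side, liver 6 was highest for Cidec (40.7 CPM) and Lgals3 (114 CPM), liver 2 for Ces1e (139 CPM), liver 9 for Cyp2c54 (216 CPM) and liver 4 for Krt23 (7.77 CPM).

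The response to anti-DBI differed between MCD and RCD in 36 of the same 50 genes (edgeR interaction over 30 livers, adjusted p from 3.71e-07 to 0.0412). Most of the 50 were named for a small p or a large change on MCD, in the same livers that the interaction uses, so this share is not to be read against the 19.2% of all 14335 genes. Values are the log2 fold change on MCD minus that on RCD. Genes whose change was more positive on MCD were Mup3 (2.57), Mup11 (3.73), Mup7 (3.66), Cyp2c54 (3.77), Elovl3 (1.67), Ces1e (1.61), Fabp1 (1.57), Ces1f (1.49), Gas1 (1.44), Chpt1 (1.28), Slc22a30 (1.26), Ugt3a1 (1.25), Cyp8b1 (1.11), Nr1d1 (1.08), Cyp2j5 (0.937), Aox3 (0.876), Prkd3 (0.77) and Dbi (0.462). Genes whose change was more negative on MCD were Uhrf1 (-3.73), Ccl2 (-3.20), Mki67 (-3.13), Elovl7 (-3.01), Cdkn1a (-2.97), Afp (-2.13), Fam129a (-2.12), Abcc4 (-1.80), Gsta1 (-1.73), Ccr2 (-1.68), Tagln2 (-1.57), Hid1 (-1.50), Pls1 (-1.44), Srxn1 (-1.43) and Tnfaip3 (-1.17). Lcn2 differed the most of the 50 (-5.98), and Saa2 (-3.58) and Saa1 (-3.20) rose less on MCD than on RCD.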

How the results depend on the processing

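The count of genes called (5696) was 5066 to 6395 under the other settings and 5195 to 5921 when 1 liver was left out, with 2571 to 2903 higher and 2578 to 3059 lower. None of the named genes that were called changed sign, but the balance of the counts did turn, to more genes higher than lower, with RLE scaling (2866 and 2830), with thinned libraries (2582 and 2511), without MCD IgG 3 (2617 and 2578) and without MCD IgG 4 (2903 and 2891). Upper-quartile scaling kept 90.4% of the calls but moved the share that was higher from 48.4% to 38.6%, with a median of all genes of -0.06. With all libraries thinned to 10283129 counts, 5093 genes were called, and 87.0% of the calls were kept. With MCD anti-DBI 5 and 10 summed 5453 genes were called, and with both left out 5215. The count of genes changed by a log2 of 1 or more (650) moved most. It was 1320 with no filter on low counts, which adds such genes, 1189 with DESeq2, where the test and the filter both differed, 331 with at least 10 counts in every library, which removes them, and 301 with the Wilcoxon-Mann-Whitney test, and it ran from 551 to 746 when 1 liver was left out. Interaction calls (2752) were 2173 to 2986, and 2263 to 3129 without 1 liver.

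Of 244 called genes that the naming rule gave, which leaves out list members named for other reasons, 20 lost the call in 1 or more of 32 settings that still tested them, and at the 10-count minimum 36 were not called or no longer tested. List counts moved by over 1.5 times in few cases. Ribosomal protein genes lower went from 19 to 12 and lysosomal genes from 14 to 9 with no filter, lysosomal genes to 8 without MCD IgG 3, chemokines from 21 to 12 and mitosis genes from 24 to 6 at the 10-count minimum, and acute phase genes lower from 5 to 3 by the rank test. The cause of these moves was not tested, except that the minimum tests fewer genes.

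Replicate numbers are shared by both groups. Their deviations from the group means correlated between -0.192 and 0.167, and 0 livers correlated best with their own number, so the numbers were not taken as pairs. With the replicate block 5214 genes were called (2508 higher, 2706 lower). Among list members and named genes 35 lost the call, 4 of them among the 244 that the naming rule gave. Bcl6, Cyp4a14, Ehhadh, Fabp4 and Sms, named for other reasons, were also among the 35.

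A level of 1 CPM stands for 10.3 to 20.7 counts per liver, so levels and folds of genes below it are the least precise.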

Other observations

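Some transcripts outside the gene lists moved by large amounts. Vmn2r3, annotated as a vomeronasal receptor, was 13.7 to 115 CPM (median 66.5) in MCD IgG and 0.227 to 25.9 CPM (median 9.47) in MCD anti-DBI (log2 fold change -2.72, edgeR adjusted p = 7.51e-05), against a mean of 0.0258 CPM in RCD IgG. By gene class, 80 of 216 long intergenic RNAs were called (61 higher, 19 lower, 37.0%), and of 317 processed pseudogenes 23 were higher and 87 lower (34.7%), against 42.8% of 12388 protein-coding genes. Of the 13 protein-coding genes of the mitochondrial genome, 3 were higher and 3 lower (46.2%).

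Transcripts of neighbouring tissue were scarce. The 11 fat and muscle transcripts other than Car3 summed to 41.4 CPM in MCD IgG 5 and 13.3 CPM in MCD IgG 9, and to between 0.271 and 2.43 CPM in the other 18 livers. Pancreas transcripts (12 genes) summed to 6.79 to 13.6 CPM in all 20 livers.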
